A study of Homo sapiens with 4 samples.

Results

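Human chromosome 19 carries several dense clusters of zinc-finger genes, and 239 of these genes were examined here in human embryonic stem cells (hESCs) of the naïve and the primed state. Members were the protein-coding genes annotated on chromosome 19 whose symbol is ZNF followed only by digits, and they were 239 of the 62218 annotated genes with a transcript in the files. By the start of the counted transcript, 46 members lay under 19 Mb, 37 between 19 and 25 Mb, 55 between 34 and 45 Mb and 95 over 51 Mb. The remaining 6 members (ZNF536, ZNF507, ZNF296, ZNF541, ZNF114 and ZNF473) lay between these intervals.

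The RNA came from H1, an established human embryonic stem cell line, as 2 libraries per state, sequenced as cDNA on a Nanopore instrument. Primed cells were kept in mTeSR1 on Matrigel. Naïve cells were derived from the same H1 cells in low oxygen, in a medium with the kinase inhibitors dasatinib, AZD5438, SB590885 and PD0325901, together with Y-27632, LIF, activin A and bFGF. The 2 states therefore differ in medium, inhibitors and oxygen at once, and both come from a single line.

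Most of these genes encode proteins with an array of C2H2 zinc fingers, each of which contacts a few bases of DNA, and many also carry a KRAB domain at the amino end. The KRAB domain binds TRIM28 (KAP1), which brings the histone methyltransferase SETDB1 and HP1 proteins, so that chromatin at the bound site is marked with H3K9 methylation and silenced. Many bound sites lie in transposable elements, and the genes spread on chromosome 19 by tandem duplication, so that neighbours are often paralogs. In a translation of one annotated transcript per gene, a KRAB core motif was found in 176 members, and the number of fingers ran from 1 to 36 with a median of 12.

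Values are alignment counts over the whole span of a transcript, introns included and without regard to strand, so that a gene inside or across another one shares its counts. Gene-level counts summed to 29618037 and 30978794 for naïve cells, and for primed cells they were 23542380 and 24673428. Members held 0.157% and 0.160% of them in naïve and 0.259% and 0.262% in primed cells. After TMM normalization, in counts scaled by the effective library size (CPM), the members summed to 2016 and 1941 CPM in naïve and to 2071 and 2109 CPM in primed libraries. Replicates of a state differed by more than sampling noise, with a chi-square per degree of freedom over genes of 13.2 in naïve and 7.82 in primed cells, so none was counted as a duplicate. Nothing states that the replicates were separate cultures, so p-values measure only the spread between these libraries. The labels were checked against marker genes. All 8 naïve markers (DPPA5, DPPA3, DNMT3L, KLF4, KLF17, TFCP2L1, SUSD2 and ARGFX) were lower and all 8 primed markers (ZIC2, SFRP2, THY1, DUSP6, CD24, OTX2, SALL2 and DNMT3B) were higher in primed cells, and SFRP2 and THY1 were at 0 in both naïve libraries. With scaling by library size, KLF17 no longer passed and was at 0.23 on the log2 scale. Of the 6 shared pluripotency markers, SOX2, LIN28A, DPPA4 and PRDM14 were higher, with log2 fold changes of 2.38, 2.11, 1.07 and 0.86, and NANOG was lower, at -1.62. POU5F1 did not pass the test, at -0.05 ± 0.14 (SE), and was called higher with scaling by library size, at 0.59.

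Markers of other cell types also moved with the state. Of 11 trophoblast markers tested, 10 were lower in primed cells, and the sum of the 12 listed genes was 2124 to 2473 CPM in naïve against 7.56 to 7.70 CPM in primed libraries. Most of the naïve sum was CGA, at 1548 and 1862 CPM. KRT7 did not pass the test, at 0.37 on the log2 scale, and was called higher with scaling by library size, at 1.00. For amnion markers, 5 of 7 were lower and 1 was higher, with sums of 78.1 to 81.9 CPM in naïve and 120.02 to 128.8 CPM in primed libraries, and TFAP2B was at 0 in both primed libraries. Most of that sum was CTSV, at 52.5 and 58.0 CPM in naïve and 112.9 and 122.8 CPM in primed libraries, the 1 amnion marker that was higher. For primitive endoderm, 2 of 5 tested genes were higher and 2 lower, with sums of 14.4 to 22.6 and 13.7 to 13.8 CPM, and FOXA2 was at 0 in both naïve libraries. With scaling by library size, the amnion list had 2 higher and 4 lower and the primitive endoderm list 3 higher and 1 lower. Of the eight-cell-like markers, 4 of 4 tested were lower, with sums of 18.97 to 20.99 CPM in naïve and 1.46 to 1.53 CPM in primed libraries, where TRIM43, MBD3L2 and H3Y1 were at 0. The part of such cells in the values below was not tested, and in these bulk libraries fewer cells of a type cannot be told apart from less RNA per cell.

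The promoters of the members between 19 and 25 Mb are shown first because their genes gave both the largest falls and some of the clearest rises between the states. RefSeq promoter windows (GRCh38.p14, 250 bases before to 50 after the annotated start) were matched for 209 of 239 members. Of the run of 9 genes described next, ZNF676, ZNF729, ZNF98, ZNF99 and ZNF728 had no entry. From the matched genes of that run, ZNF208, ZNF257 and ZNF723 are printed below, with ZNF43 and ZNF730 from either side of it, 5′ to 3′ on the strand of the gene, with the letters CCAAT or their reverse complement ATTGG in capitals.
ZNF43, chr19:21836133-21836432, minus strand: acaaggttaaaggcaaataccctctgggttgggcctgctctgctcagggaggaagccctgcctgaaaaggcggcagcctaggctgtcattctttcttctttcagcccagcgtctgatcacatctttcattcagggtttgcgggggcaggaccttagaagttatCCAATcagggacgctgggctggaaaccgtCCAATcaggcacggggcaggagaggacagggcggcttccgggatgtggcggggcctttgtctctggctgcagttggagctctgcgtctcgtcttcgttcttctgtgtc
ZNF208, chr19:22010894-22011193, minus strand: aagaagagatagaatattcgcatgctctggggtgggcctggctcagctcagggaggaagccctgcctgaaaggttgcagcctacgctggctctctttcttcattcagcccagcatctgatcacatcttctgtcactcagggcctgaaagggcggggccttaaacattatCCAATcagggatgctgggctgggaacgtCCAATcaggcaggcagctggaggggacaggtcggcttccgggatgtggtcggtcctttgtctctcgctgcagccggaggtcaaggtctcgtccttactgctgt
ZNF257, chr19:22052234-22052533, plus strand: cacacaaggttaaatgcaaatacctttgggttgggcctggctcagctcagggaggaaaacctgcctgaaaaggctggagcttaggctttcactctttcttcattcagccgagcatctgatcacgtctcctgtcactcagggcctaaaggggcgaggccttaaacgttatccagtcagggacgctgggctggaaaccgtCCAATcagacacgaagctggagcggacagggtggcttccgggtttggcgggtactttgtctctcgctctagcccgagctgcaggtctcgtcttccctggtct
ZNF723, chr19:22832041-22832340, plus strand: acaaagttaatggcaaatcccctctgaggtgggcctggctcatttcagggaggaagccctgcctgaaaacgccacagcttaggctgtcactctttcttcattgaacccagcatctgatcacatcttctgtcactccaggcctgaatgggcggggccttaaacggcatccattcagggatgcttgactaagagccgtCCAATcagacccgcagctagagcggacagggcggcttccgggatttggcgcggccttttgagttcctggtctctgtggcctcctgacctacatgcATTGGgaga
ZNF730, chr19:23116775-23117074, plus strand: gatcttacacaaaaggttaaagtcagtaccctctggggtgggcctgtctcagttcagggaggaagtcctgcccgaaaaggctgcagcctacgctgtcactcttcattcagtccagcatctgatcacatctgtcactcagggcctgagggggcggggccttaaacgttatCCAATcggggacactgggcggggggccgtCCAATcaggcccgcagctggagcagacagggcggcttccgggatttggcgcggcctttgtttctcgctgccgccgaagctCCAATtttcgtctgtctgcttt

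The 5 windows were alike: any 2 of them were identical at 76.5% to 83.2% of aligned bases. ZNF208, ZNF257 and ZNF723 fell in primed cells, whereas ZNF43 and ZNF730 rose, and CCAAT stood in all 5. For ZNF43 and ZNF730, the RefSeq start lies inside the span of the counted transcript rather than at its end. CCAAT or ATTGG was found in 29 of 29 windows of the members between 19 and 25 Mb, in 81 of the 180 windows of other members and in 35.7% of the 27305 windows of all genes. In a narrower stretch chosen after the positions were seen, 90 to 50 bases before the start, CCAAT on the gene's strand stood in 27 of 29 windows of this interval, in 16.7% of the other members' windows and in 6.30% of all windows. In 17 of the 29 it stood there 2 times or more, against 1.11% of the other members' windows and 0.308% of all windows.

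The windows between 19 and 25 Mb also held fewer CG dinucleotides, with a median of 10 (range 8 to 18) against 22 for other members and 14 for all genes. Across all members with a window, TATAAA was found in 1.91%, against 11.95% of all windows, and the GC box GGGCGG in 69.9%, against 44.6%. Except in the narrower stretch, letters were searched on both strands. The number of CG dinucleotides and the log2 fold change ran nearly independently over 206 members (Spearman's rho 0.01, Pearson's r 0.08, across genes, which are not independent replicates and share the 4 libraries), and rises and falls were found at low and at high CG numbers. These values leave out ZNF676, ZNF729, ZNF98, ZNF99 and ZNF728, which had no window and were all far lower in primed cells.

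**Figure D1:**
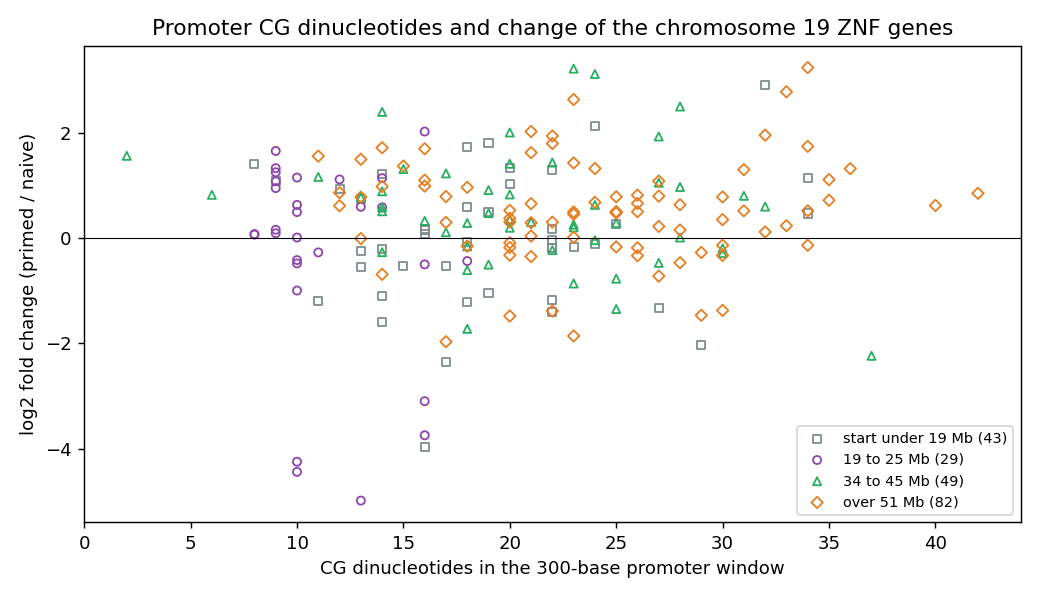
Each point is a chromosome 19 ZNF gene with a promoter window, by the CG dinucleotides in its 300 bases (x axis) and its log2 fold change between primed and naïve cells (y axis), with a marker for each of the 4 intervals and the number of genes in the key. Genes between 19 and 25 Mb sit between 8 and 18 CG dinucleotides, with both rises and falls among them.

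A run of 9 consecutive members in 19p12, from ZNF208 to ZNF728 (chr19:21932958-23003176, GRCh38, from the start of the first span to the end of the last), was far lower in primed than in naïve cells. The limits of this run were set after the values were seen, so it is described without a test of its own. Its summed level was 225.5 and 215.4 CPM in the naïve libraries and 9.88 and 10.9 CPM in the primed libraries. All 9 genes were lower in the quasi-likelihood test of edgeR after adjustment by Benjamini-Hochberg, with log2 fold changes from -3.10 to -8.32. Of all 27632 genes tested, 32.6% were lower and 37.4% were higher in primed cells, and the counts below stand against that background.

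ZNF729 (ENSG00000196350), which encodes 34 fingers behind a KRAB core, had 905 and 978 counts in the naïve and 1 and 6 counts in the primed libraries. Its fold from naïve to primed was 333 on the pooled counts (95% exact interval 161 to 829), and its log2 fold change was -8.32 ± 0.29 (SE; edgeR's quasi-likelihood test, adjusted p = 4.34e-27). This interval and those below cover counting error only. Next to it, ZNF676 (ENSG00000196109) had 861 and 1002 counts in naïve and 8 and 5 in primed libraries, a fold of 177 (95% exact interval 103 to 334) and a log2 fold change of -7.44 ± 0.26. A transcript of the unnamed gene ENSG00000282732 inside its span had 80.5% of its mean count, so the counts of the pair cannot be separated.

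ZNF208 (ENSG00000160321), with 36 fingers, the most found in any member, had 1045 and 1090 counts in naïve and 59 and 80 in primed libraries, a log2 fold change of -4.25 ± 0.19. Per kb of exonic length it ranked second of all 239 members in naïve cells, at 59.4 CPM per kb, and 81st in primed cells, at 3.11 CPM per kb. Beside it, ZNF257 had 374 and 401 counts against 13 and 17, a log2 fold change of -4.99 ± 0.25. In neither gene did the 2 states overlap.

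Per kb of exonic length, ZNF98 and ZNF492 had the highest primed levels in the run after ZNF208, at 1.32 and 0.650 CPM per kb. ZNF98 had 847 and 809 counts in naïve and 91 and 95 in primed libraries, and ZNF492 had 609 and 537 against 80 and 86. Their transcripts are 97.8% identical over 2343 bases, and counting at every place an alignment falls can share counts between them, so neither value is certain on its own. The unnamed gene ENSG00000268981, which overlaps ZNF492, had 74.2% of its mean count. Their log2 fold changes were -3.46 ± 0.18 and -3.10 ± 0.19.

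The last 3 genes of the run showed the same pattern at lower counts. ZNF99 had 179 and 178 counts in naïve and 8 and 14 in primed libraries, ZNF723 had 189 and 220 against 12 and 11, and ZNF728 had 198 and 285 against 19 and 20. Their log2 fold changes were -4.31 ± 0.30, -4.44 ± 0.29 and -3.92 ± 0.26. The naïve libraries differed most for ZNF728, yet both stood more than 10-fold above the primed ones in CPM.

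The genes on either side moved the other way. ZNF43, before ZNF208, had 478 and 468 counts in naïve and 1187 and 1347 in primed libraries, and rose by 1.11 ± 0.15 on the log2 scale (edgeR's quasi-likelihood test, adjusted p = 2.22e-08). ZNF730, after ZNF728, had 424 and 479 counts in naïve and 2030 and 2503 in primed libraries, and rose by 2.02 ± 0.15 (adjusted p = 2.17e-15 in the same test). Both had primed libraries wholly above the naïve ones, so the direction turned from one gene to the next at each end of the run. The limits were set where the falls ended, so a fall could not stand next to the run, whereas a gene without a call could.

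**Figure D2:**
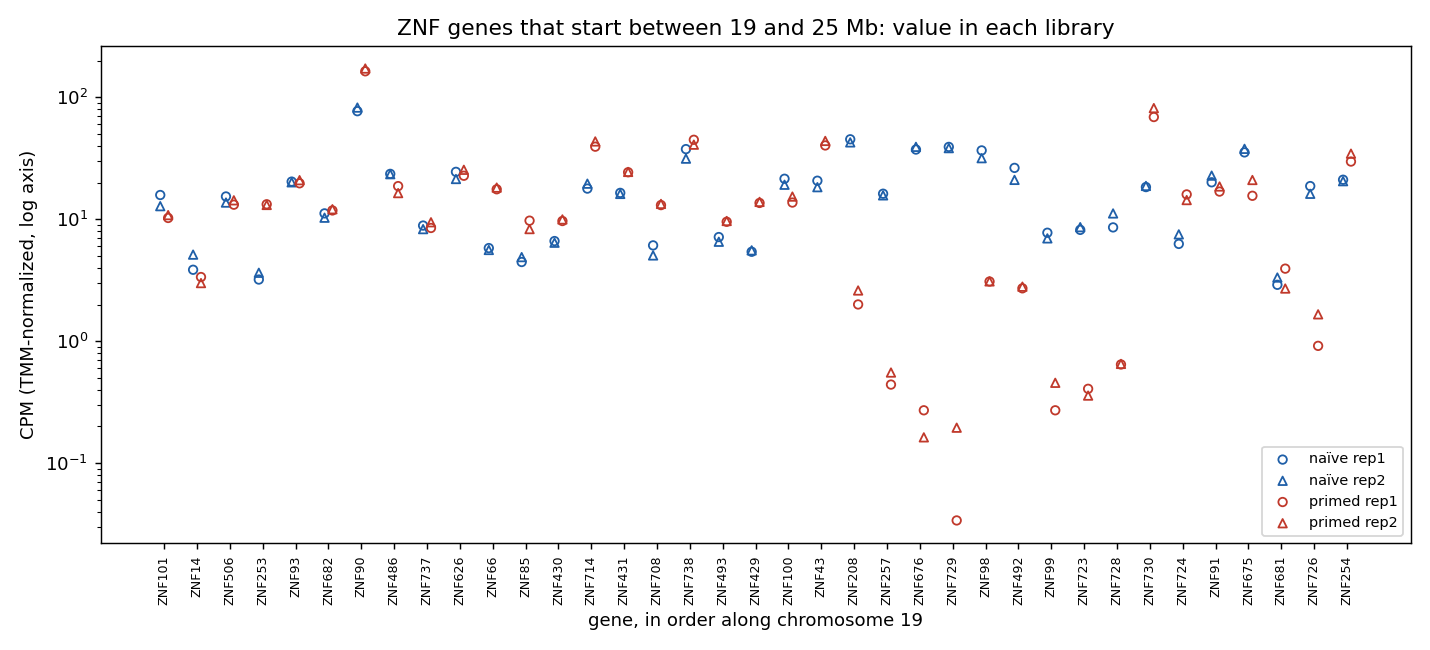
Each point is the TMM-normalized CPM (log axis) of one of the 37 genes between 19 and 25 Mb in one library, with genes in chromosome order, blue for naïve, red for primed, a circle for replicate 1 and a triangle for replicate 2. From ZNF208 to ZNF728 the red points lie far below the blue ones, with ZNF43 and ZNF730 on either side reversed.

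Elsewhere between 19 and 25 Mb the direction was mixed. Before ZNF208, 11 of 21 members rose and 4 fell, with a median log2 fold change of 0.49, and after ZNF728, 3 of 7 rose and 2 fell. ZNF726, 5 genes past ZNF730, fell as the run did, with 432 and 413 counts in naïve and 27 and 51 in primed libraries (log2 fold change -3.75 ± 0.22), although an overlapping unnamed gene, ENSG00000269289, had 94.1% of its mean count. ZNF253, with 74 and 93 against 391 and 402 counts, and ZNF66, with 134 and 143 against 519 and 558, were the other 2 largest rises, at 1.94 ± 0.19 and 1.65 ± 0.17 on the log2 scale. Across ZNF253 an unnamed gene had 46.4% of its mean count, and across ZNF730 another had 34.5%.

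The interval also held much of the zinc-finger expression on the chromosome. Per kb of exonic length, 8 of the 20 highest members in naïve cells and 6 of the 20 highest in primed cells lay here, among 37 of 239 members. ZNF730 was the highest member in primed cells, at 162 CPM per kb, and the eighth in naïve cells, at 40.01 CPM per kb. ZNF90, second in primed cells, was at 87.5 against 41.5 CPM per kb, with 1776 and 2103 counts in naïve and 4813 and 5283 in primed libraries, although an overlapping unnamed gene had 155% of its mean count. The highest member in naïve cells was ZNF83, over 51 Mb, at 85.9 against 31.0 CPM per kb, and it fell by 1.47 ± 0.15 on the log2 scale. Because counts include introns, a level per kb of exonic length orders these genes only roughly.

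Over all members, 102 of the 235 tested were higher in primed cells (43.4%) and 49 were lower (20.9%) when edgeR's quasi-likelihood p, adjusted over all genes, had to be under 0.05. The 4 members with too few counts for the test were ZNF835, ZNF556, ZNF471 and ZNF536. The background of 37.4% higher and 32.6% lower is given as a description, with no test between members and other genes. Beyond a log2 fold change of 1, 59 of the 235 members were higher and 34 lower, and both shares were below the backgrounds of 28.6% and 18.5%. The libraries of the 2 states did not overlap in 203 of the 235 members, against a background of 84.4% over all genes. The median log2 fold change of members was 0.32, which was 0.24 above the median of all genes, 0.08. With scaling by library size in place of TMM, the median of all genes shifted to 0.72, and 168 members were higher and 32 lower, with their median 0.25 above that of all genes.

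By interval, the balance of rises and falls differed, with no test between intervals. Under 19 Mb, 16 of 45 rose and 13 fell, with a median log2 fold change of 0.07, and between 19 and 25 Mb, 14 of 37 rose and 15 fell, with a median of 0.06. Between 34 and 45 Mb, 26 of 55 rose and 6 fell, with a median of 0.58, and over 51 Mb, 45 of 93 rose and 12 fell, with a median of 0.50. Other protein-coding genes of the same 4 intervals had 219 of 800 higher and 324 lower, with a median of -0.22, which was -0.30 relative to all genes. By interval, their medians were -0.28 under 19 Mb, 0.31 between 19 and 25 Mb, -0.24 between 34 and 45 Mb and 0.08 over 51 Mb. Between 19 and 25 Mb, 9 of 26 of them were higher and 7 lower, and over 51 Mb, 37 of 107 were higher and 33 lower. ZNF genes on other chromosomes had 122 of 219 higher and 46 lower, with a median of 0.65.

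**Figure D3:**
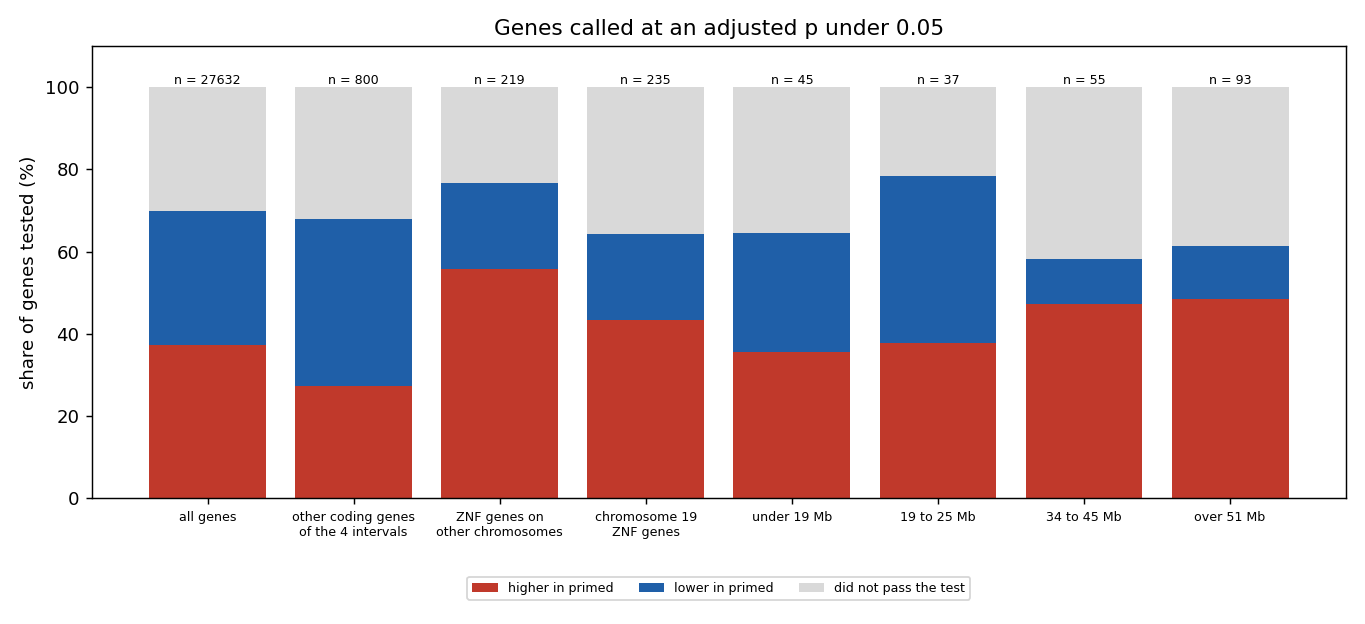
Bars give the share of tested genes (%) that were higher in primed cells (red), lower (blue) or did not pass the test (grey), for all genes, for comparison sets and for the chromosome 19 ZNF genes as a whole and by interval, with n above each bar. The blue share is largest between 19 and 25 Mb and smallest between 34 and 45 Mb among the ZNF bars.

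**Figure D4:**
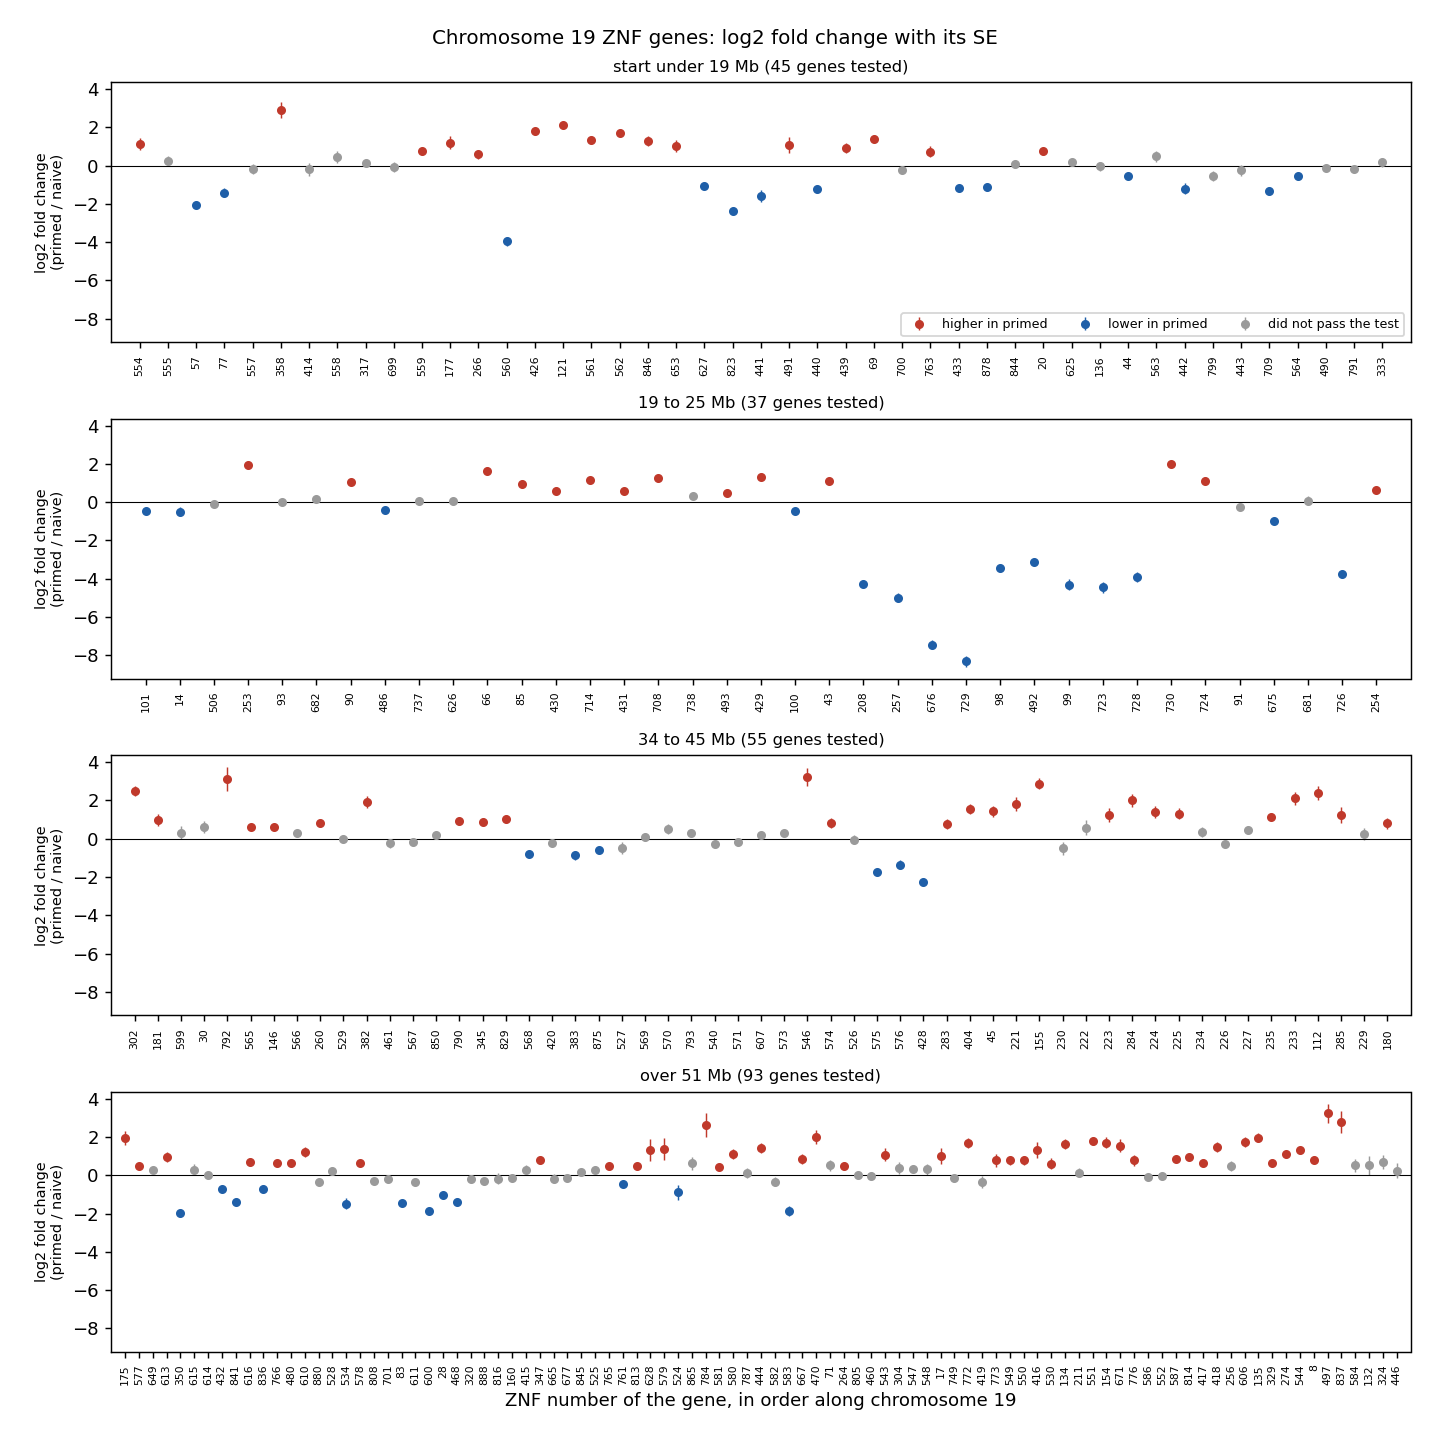
Points are the log2 fold changes (primed over naïve, y axis) of the tested genes in order along chromosome 19 (x axis, the number after ZNF), with SE bars, a panel per interval, red for higher in primed, blue for lower and grey for genes that did not pass the test. The run of falls from ZNF208 to ZNF728 stands in the 19 to 25 Mb panel, and long red stretches stand at the right of the 2 lowest panels.

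Calls were compared between neighbouring members as a description, with no reference share for other genes. Among 226 adjacent pairs of tested members, in those with both genes called, 57 were both higher, 20 both lower and 24 opposite. With the pairs of overlapping spans left out, the same counts were 50, 18 and 24. Same calls against opposite calls were most uneven between 34 and 45 Mb, with 16 pairs both higher, 3 both lower and 2 opposite. There 26 members rose and 6 fell, so that many pairs of rises would arise in any order. Between 19 and 25 Mb, where 14 rose and 15 fell, the counts were 7, 9 and 6. Most of these 9 pairs of falls lie inside the run from ZNF208 to ZNF728, so they describe that run again. Outside the run, the only neighbours there that both fell were ZNF101 and ZNF14. Under 19 Mb they were 8, 5 and 7, and over 51 Mb 26, 3 and 9. After the run of 9, the longest stretch of the same call was 8 rises from ZNF606 to ZNF837 near the end of the long arm, and stretches of 6 rises ran from ZNF426 to ZNF653, from ZNF66 to ZNF708 and from ZNF773 to ZNF134. Paralogs beside each other can share alignments, and the part of that in these stretches was not tested.

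Under 19 Mb, ZNF121 had the largest rise among members with a mean count of at least 50. It had 459 and 448 counts in naïve and 2407 and 2501 in primed libraries, overlapped no other gene, and rose by 2.12 ± 0.15 on the log2 scale (edgeR's quasi-likelihood test, adjusted p = 3.30e-16). Near it, ZNF426, with 82 and 95 against 382 and 377 counts, and ZNF562, with 93 and 122 against 411 and 465, rose by 1.79 ± 0.19 and 1.72 ± 0.18, although ZNF561-AS1 across ZNF562 had 123% of its mean count. ZNF560, just before ZNF426 and also free of any overlapping gene, fell, with 210 and 247 counts in naïve and 16 and 20 in primed libraries and a log2 fold change of -3.96 ± 0.26 (adjusted p = 1.71e-17 in the same test). Thus opposite and large changes stood side by side, in genes that were named only where the states did not overlap.

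The other 2 largest falls of this interval were ZNF823, with 292 and 310 against 76 and 70 counts, and ZNF57, with 399 and 363 against 121 and 110. Their log2 fold changes were -2.35 ± 0.20 and -2.03 ± 0.19. An unnamed gene across ZNF57, ENSG00000253392, had 98.4% of its mean count. In the group from ZNF627 to ZNF791, with limits set after the values were seen, 10 of 24 fell and 5 rose, whereas from ZNF554 to ZNF846, 10 of 19 rose and 3 fell.

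Between 34 and 45 Mb, the rises were densest from ZNF283 to ZNF180, again with limits set after the values were seen, where 14 of 20 members rose and 0 fell in edgeR's quasi-likelihood test, with a median log2 fold change of 1.24. The count of falls was also 0 at an unadjusted p under 0.05 and 0 with DESeq2, but DESeq2 called only 10 of the rises. Within it ZNF155 had 15 and 21 counts in naïve and 182 and 145 in primed libraries, a rise of 2.87 ± 0.29. In the earlier group, from ZNF302 to ZNF573, 10 of 29 rose and 3 fell. ZNF302, free of overlaps, had 27 and 32 against 205 and 207 counts, a rise of 2.49 ± 0.25, and ZNF382 had 14 and 21 against 77 and 88, a rise of 1.93 ± 0.31 beside an overlapping transcript of ZNF529 with 578% of its count.

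The 3 largest falls here were neighbours with few fingers and no KRAB core found, and each shared its span with a more strongly counted gene. ZNF428 had 514 and 622 counts in naïve and 143 and 154 in primed libraries (log2 fold change -2.24 ± 0.17), with a transcript of SRRM5 at 133% of its mean count. ZNF575 had 627 and 598 against 239 and 220 (log2 fold change -1.73 ± 0.17), with ETHE1 at 130%, and ZNF576 had 189 and 152 against 92 and 74 (log2 fold change -1.35 ± 0.22), with SRRM5 at 377%.

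Over 51 Mb, the members before ZNF628 and those from it to the end of the chromosome differed in balance, with the limit set after the values were seen. From ZNF175 to ZNF813, 11 of 38 rose and 10 fell, and from ZNF628 onward, 34 of 55 rose and 2 fell. ZNF135, with 74 and 38 counts in naïve and 257 and 284 in primed libraries, rose by 1.95 ± 0.23, and its naïve libraries were uneven. ZNF551, with 68 and 81 against 310 and 329 counts, and ZNF606, with 38 and 42 against 154 and 177, rose by 1.79 ± 0.20 and 1.74 ± 0.24. Transcripts of ZSCAN18, of ENSG00000269026 and of ENSG00000176593 across these 3 genes had 103%, 150% and 89.1% of their mean counts.

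The largest falls over 51 Mb were ZNF350, ZNF600 and ZNF583. ZNF350 (ZBRK1), a repressor known as a partner of BRCA1, had 253 and 251 counts in naïve and 89 and 70 in primed libraries, a log2 fold change of -1.97 ± 0.21. ZNF600, free of overlaps, had 779 and 800 against 258 and 273, a change of -1.88 ± 0.16. ZNF583 had 133 and 92 against 39 and 38, a change of -1.86 ± 0.27. ZNF350 and ZNF583 are crossed by ZNF350-AS1 and ZNF582-DT, with 108% and 107% of their mean counts, and without strand these cannot be separated.

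**Figure D5:**
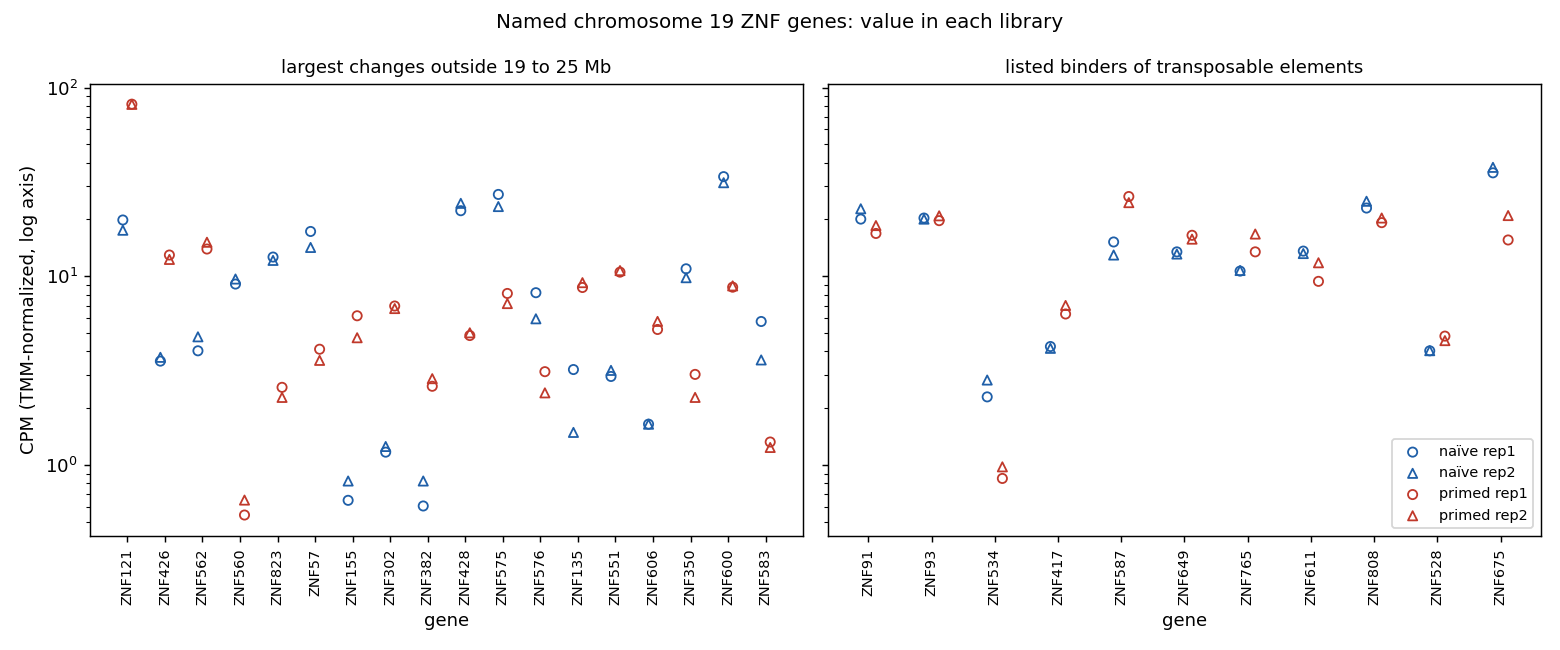
Each point is the TMM-normalized CPM (log axis) of one named gene in one library, blue for naïve, red for primed, a circle for replicate 1 and a triangle for replicate 2. The left panel shows the largest changes outside 19 to 25 Mb, in genes chosen so that the states do not overlap. The right panel shows the listed binders of transposable elements, to which that rule was not applied.

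Among 11 chromosome 19 members known to bind transposable elements, 3 rose, 2 fell and 6 did not pass the test, with a median log2 fold change of 0.01. In the same fit, 37.4% of all genes were higher and 32.6% lower. Scaling by library size gave 8 higher and 2 lower, but under it 15524 of all 27632 genes were higher and 4511 lower, with a median of 0.72. ZNF91, which binds SVA elements, had 464 and 582 counts in naïve and 497 and 570 in primed libraries (log2 fold change -0.28 ± 0.16, edgeR's quasi-likelihood test, adjusted p = 0.110). ZNF93, which binds L1PA elements, had 470 and 513 against 581 and 642, with a log2 fold change of 0.01 ± 0.15. Neither passed the test, and both lie in the same interval as the run that fell.

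ZNF534 fell, with 53 and 72 counts in naïve and 25 and 30 in primed libraries (log2 fold change -1.48 ± 0.30), and ZNF675 fell, with 816 and 965 against 459 and 644 (log2 fold change -0.9997 ± 0.16). The near-identical pair ZNF587 and ZNF417, which bind endogenous retroviruses, had 351 and 331 against 780 and 754 counts and 98 and 106 against 186 and 215. Both were higher in primed cells, by 0.86 ± 0.16 and 0.67 ± 0.20, but their transcripts are 97.4% identical and lie across other genes. ZNF765 had 246 and 274 against 397 and 514 counts, a rise of 0.50 ± 0.17 (edgeR's quasi-likelihood test, adjusted p = 0.00749) that was 0.33 (adjusted p = 0.146) without primed replicate 2. For ZNF649, ZNF611, ZNF808 and ZNF528 the log2 fold changes were 0.28, -0.34, -0.28 and 0.22, each without passing the test, and transcripts of ZNF649-AS1 and ZNF701 across ZNF649 and ZNF808 had 98.5% and 108% of their mean counts.

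Of 17 genes for cofactors of KRAB zinc-finger proteins, 7 rose, 7 fell and 3 did not pass the test. Over all genes tested, 37.4% were higher and 32.6% lower, and the list was not tested against them. With scaling by library size, 9 were higher and only MORC3 and DAXX were lower, where 15524 of all 27632 genes were higher and 4511 lower. TRIM28, the direct partner of the KRAB domain, had 393 and 368 counts in naïve and 645 and 616 in primed libraries, a rise of 0.42 ± 0.16 that did not pass with DESeq2 (0.37, adjusted p = 0.0753). SETDB1, the methyltransferase, had 290 and 336 against 369 and 362 counts and did not pass, with a log2 fold change of -0.08 ± 0.16. The HUSH subunit TASOR, with 65 and 93 against 364 and 434 counts, and its partner MORC2, with 40 and 47 against 197 and 241, rose by 2.03 ± 0.20 and 2.02 ± 0.23, while the HUSH subunit MPHOSPH8 fell by 0.61 on the log2 scale (0.03 with scaling by library size). DAXX, the partner of ATRX in loading histone H3.3, had 1252 and 1255 against 530 and 491 counts, with a log2 fold change of -1.60 ± 0.15, whereas ATRX itself had 506 and 586 against 1285 and 1383, a rise of 0.98 ± 0.15. HP1 genes were split, with CBX5 higher by 1.27 ± 0.15 and CBX1 and CBX3 lower, at -0.75 ± 0.14 and -0.44 ± 0.14, calls that scaling by library size ended (-0.12 and 0.20). SETDB1 was higher under that scaling, at 0.56.

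Rises outnumbered falls in each class of domain content and overlap that was counted, with no test between classes. They did so over all genes too, with 37.4% higher and 32.6% lower. Members with a KRAB core had 71 of 175 higher and 35 lower, and those without one found had 31 of 60 higher and 14 lower. Members with 1 to 9 fingers had 31 of 61 higher and 9 lower (50.8% and 14.8%), and those with 10 to 14 had 49 higher and 24 lower (46.7% and 22.9%). Those with 15 or more had 22 of 69 higher and 16 lower (31.9% and 23.2%), a share of rises below that of all genes. Among the 62 tested members that overlap no other gene, 26 rose and 12 fell (41.9% and 19.4%). Among the 89 in which no overlapping transcript had 10% or more of the count, 37 rose and 20 fell (41.6% and 22.5%).

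Of the 6 members between the intervals, 5 were tested, of which 3 were lower and 1 was higher. ZNF473, which takes part in histone pre-mRNA processing, had 151 and 164 counts in naïve and 106 and 118 in primed libraries, ZNF296 had 136 and 150 against 84 and 78, and ZNF114 had 254 and 301 against 133 and 173. These 3 fell, by 0.80, 1.12 and 1.17 on the log2 scale. ZNF507 rose, with 38 and 60 against 109 and 108 counts, a change of 0.84 ± 0.25. ZNF541, known from meiosis, had 18 and 18 against 13 and 13 counts and did not pass, with a log2 fold change of -0.77 ± 0.42. ZNF536, which was not tested, was at 0.0129 CPM per kb of exonic length in naïve and 0.139 in primed cells.

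At low counts, several rises rest on few alignments. ZNF546 had 4 and 4 counts in naïve and 50 and 44 in primed libraries, a fold of 9.50 (95% exact interval 4.63 to 22.6), and ZNF497 had 1 and 7 against 52 and 43, a fold of 9.60 (4.68 to 22.9) beside an overlapping unnamed gene with 897% of its count. ZNF792 had 2 and 2 against 13 and 32, a fold of 9.09 (3.32 to 34.8). The states did not overlap in these 3 genes, and the wide intervals show what the depth allows. ZNF835, which was not tested, had 7 and 4 counts in naïve and 1 and 0 in primed libraries, and a count of 0 allows up to 3 counts, a floor of 0.0978 to 0.130 CPM in these libraries.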

How the data were processed

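Nanopore cDNA libraries of naïve and primed H1 hESCs were used, 2 per state, grouped by their labels. The authors aligned the reads with minimap2 to GRCh38 and deposited raw counts per transcript of Ensembl release 105, made with featureCounts 2.0.0 (long-read mode, whole transcript spans, every overlapping transcript and every place an alignment falls, strand ignored), without pooling of replicates. Total counts over all transcripts were 129276054 to 161548901 per library. An alignment adds to every transcript it overlaps, so these totals are not numbers of reads. The precision of low genes is limited by their own few counts. Gene names came from GENCODE release 44 through the transcript identifiers, and the 2283 of 244825 without a match, with 1.0% of the counts, were left out. The value of a gene is the count of its transcript with the largest mean count. One item is not reported here.

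Tests were run on genes that reached 10 counts in 2 or more libraries, with edgeR 4.0.16 (R 4.3.3; TMM, quasi-likelihood test, two-sided), with Benjamini-Hochberg adjustment over all 27632 genes and a threshold of 0.05. SE is the size of the log2 fold change divided by the root of F. CPM uses the TMM effective size. The fit was tested on simulated data in which few genes changed, with as many rises as falls. That setting is unlike these libraries, where 70.0% of genes tested were called, so it does not cover the choice of scaling. Alternatives were DESeq2 1.42.0, library-size and RLE scaling, a replicate block, no filter, a minimum of 50 counts, counts summed over transcripts, the shortest protein-coding transcript, a log2 fold change beyond 1, overlap filters, symbols with a letter after the digits, and each library left out in turn. Named genes were the 3 largest rises and 3 largest falls per interval (mean count of at least 50, states not overlapping), the listed transposable-element binders and the 3 highest per kb; further genes (the rest of the run, its neighbours, ZNF726, the members between intervals and the low-count examples) were chosen after their values were seen. Members and lists were chosen with earlier results of these data known.

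Fingers and KRAB cores were counted by pattern in translated GENCODE transcripts, and not in RefSeq proteins as planned. Transcripts were compared with blastn 2.17.0. Promoter windows are those of RefSeq.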

Additional observations from a re-analysis of the deposited data

How the results depend on the processing

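The 9 genes from ZNF208 to ZNF728 were lower in all 9 of 9 cases under each of the 13 alternative settings tried for them, with log2 fold changes between -2.46 and -9.97. With library-size scaling, all genes had 15524 higher and 4511 lower, members 168 and 32, members higher were 28 under 19 Mb, 22 between 19 and 25 Mb, 43 between 34 and 45 Mb (with 3 lower) and 74 over 51 Mb, and 2 KRAB cofactors were lower. With a log2 fold change beyond 1, all genes had 5120 lower and members 93 calls, of which 59 were higher; the intervals had 19 calls (9 higher) between 19 and 25 Mb, 20 (17 higher, 3 lower) between 34 and 45 Mb and 30 (22 higher) over 51 Mb. Fewer members were tested under the overlap filters, with 38 calls (26 higher, 12 lower) and 57 calls (37 higher, 20 lower). Without 1 library the members called ranged from 129 to 140, those higher from 87 to 97 and those lower from 42 to 47.

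Of the 151 member calls, 127 were kept with DESeq2, 134 with library-size scaling, 149 with RLE scaling and 118 with the shortest transcript, where ZNF28 turned from -1.05 to 0.57. The differences between replicates 1 and 2 in the 2 states had a correlation of 0.07 over 27632 genes. With 2 libraries per state, this cannot decide whether same-numbered libraries were prepared together. The fit with the replicate block called 155 members, kept 150 of the 151 calls and changed no count by more than 1.5 times.

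Directions turned for 5 named genes, of which ZNF765 had a called rise and the others had not passed, and the cause was not tested. Library-size scaling gave log2 fold changes of 0.36 for ZNF91 and 0.36 for ZNF808, both then called higher, and 0.30 for ZNF611, which did not pass. ZNF93 was at -0.042 with DESeq2, -0.042 with RLE, -0.0010 without a filter, -0.15 with summed transcripts, -0.17 with the shortest transcript, and from -0.0364 (without primed replicate 2) through -0.0062 (without naïve replicate 2) to 0.0488 with 1 library left out, but library-size scaling gave 0.64, called higher. ZNF765 was at -0.027 with the shortest transcript. Calls for ZNF417 were lost with summed transcripts (0.42) and the shortest transcript (0.40). With summed transcripts ZNF91, ZNF611 and ZNF808 were called lower, at -0.41, -0.48 and -0.75, so that ZNF91 and ZNF808 were called in opposite directions by these alternatives. Depth limits members with few counts, as for the 4 that were not tested.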
